A study of Glycine max with 102 samples.

Results

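NARK (Glyma.12G040000) and its homeologue CLV1A (Glyma.11G114100) are 2 of the 56044 genes in a table of soybean leaf transcript levels. They were chosen by gene ID and not by a rule on their values, although earlier results of these data were known. The gene IDs place them on chromosomes 12 and 11. NARK is a leucine-rich repeat receptor kinase that acts in the leaf to limit the number of root nodules, a control called autoregulation of nodulation. Roots that have met rhizobia make small CLE peptides, which travel to the shoot and are perceived through NARK, and a signal returned to the root then stops further nodules. Soybean mutants without NARK activity form far too many nodules, also in the presence of nitrate. CLV1A is the copy left by genome duplication. Work on its mutants has linked it to shoot growth and flowers rather than to nodule number.

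Leaves at the V2 stage, from plants aged 18 days, gave 1 RNA library for each of 102 accessions of Glycine max. These were 61 milestone cultivars and 41 parents of the nested association mapping population soyNAM. The milestone group held named varieties such as Lincoln and Williams 82. It also held an accession with a PI label, which is not counted among the PI lines below. Among the parents were 18 elite lines with the hub parent IA3023 counted among them, 15 LG lines and 8 PI lines, the last of these being introductions. The labels state no inoculation, nitrogen supply, growth condition or date. Which soyNAM column belongs to which of these classes was read from the population's public family numbers, which the labels do not give. The column named Parent was taken to be the hub parent, an assumption that the labels do not state. No other column could be tied to a single named accession.

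The values are the authors' FPKM, that is, fragments scaled by transcript length and by the mapped fragments of the library, so the levels of both copies can be set side by side. Sequencing depth is unknown, and summed FPKM ran from 459817 to 864712 per library. The leaf label was checked against marker genes: a Rubisco small subunit gene (Glyma.13G046200) had a median of 18655 FPKM, although 1 library listed it at 0. All 4 leghemoglobin genes, markers of nodules, had a median of 0 FPKM, and Lbc3 with 8 libraries was the one most often at 1 FPKM or more. In bulk leaf, fewer cells that express a gene and less RNA per cell cannot be told apart. The 5 soyNAM libraries that apart from the others in earlier results of these data were the elite libraries Parent, NAM10, NAM11 and NAM06 and the LG library NAM31, and results that rest on them are given with and without them. Parent, NAM10, NAM31, NAM11 and NAM06 had Rubisco activase (Glyma.11G221000) at 64.8, 60.5, 1814, 1385 and 1640 FPKM, against a median of 7254 FPKM over all libraries. Glyma.13G046200 and another activase gene (Glyma.02G249600) averaged 5867 and 257 FPKM in the 5, against medians of 18842 and 1162 in the other 97. Another small subunit gene (Glyma.19G046800) went the other way, with a mean of 1613 FPKM in the 5 and a median of 0 in the other 97.

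Both genes were expressed at low level in every library. NARK had a median of 1.55 FPKM over the 102 libraries, from 0.438 FPKM in Parent to 3.40 FPKM in NAM32. CLV1A had a median of 1.0003 FPKM, from 0.420 FPKM in milestone library 53 to 1.79 FPKM in NAM03. NARK was thus the higher copy by median, and its levels also covered the wider range. A mean of 1 FPKM was required for a gene to be tested, which 30101 genes reached. CLV1A passed narrowly with a mean of 1.01 FPKM, and 0.246% of the tested genes had a lower mean. NARK with a mean of 1.74 FPKM stood above 12.6% of them.

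**Figure D1:**
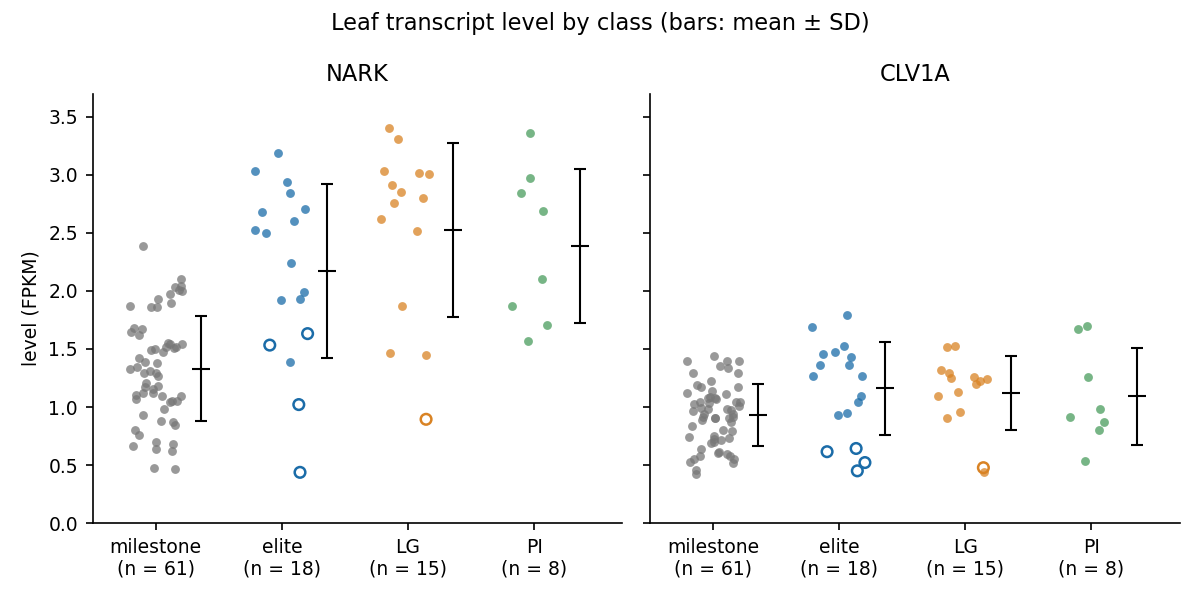
FPKM of NARK (left) and CLV1A (right) in each of 102 libraries, 1 point per library, by class, with the mean and SD beside each class; open circles are the 5 libraries that stand apart. NARK averages 1.33 FPKM in milestone cultivars and 2.17 to 2.53 FPKM in the soyNAM classes, while CLV1A averages 0.930 FPKM and 1.09 to 1.16 FPKM.

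NARK was higher in soyNAM parents than in milestone cultivars. In milestone cultivars it ran from 0.469 FPKM in library 57 through a median of 1.31 to 2.39 FPKM in library 61, and in soyNAM parents from 0.438 through a median of 2.60 to 3.40 FPKM. The collections overlapped, but 24 of 41 soyNAM libraries lay above the highest milestone library and 38 lay above the milestone median. The means were 2.34 ± 0.734 FPKM (SD, n = 41) and 1.33 ± 0.451 FPKM (n = 61), which is 1.76-fold. On the log2(FPKM + 1) scale, which understates changes of genes this low, the difference was 0.51 (SE 0.0644, 95% interval 0.38 to 0.64), with an adjusted p of 1.09e-11 in limma after Benjamini-Hochberg adjustment across every tested gene. The background was high: 74.8% of the tested genes were called here and 37% were called higher, so the call alone does not set NARK apart. A log2 difference at least as high was found in 12.5% of the tested genes. With a pseudocount of 0.1 or 0.01 FPKM the NARK difference was 0.77 or 0.81.

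CLV1A was also higher in soyNAM parents, by less. It ran from 0.420 through a median of 0.939 to 1.44 FPKM in milestone cultivars, and from 0.443 through 1.22 to 1.79 FPKM in soyNAM parents. Most of the range was shared, and 9 of 41 soyNAM libraries lay above the highest milestone library. The means of 1.13 ± 0.368 FPKM (SD, n = 41) and 0.930 ± 0.264 FPKM (n = 61) differed 1.22-fold. The difference of 0.14 on the log2(FPKM + 1) scale (SE 0.0472) had an adjusted p of 0.00758 in limma. A log2 difference at least as high was found in 36.3% of the tested genes. For CLV1A it was 0.23 and 0.25 with pseudocounts of 0.1 and 0.01 FPKM, and 0.34 after quantile normalization. The labels name no batch or date, so the collection and any batch that coincides with it cannot be told apart for either copy.

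Without the 5 libraries that stand apart, NARK averaged 2.52 ± 0.582 FPKM in 36 soyNAM parents, 1.89-fold the milestone mean, and CLV1A 1.22 ± 0.312 FPKM, 1.31-fold. CLV1A was low in all 5 of those libraries, and NARK in some of them. NARK stood at 0.438 FPKM in Parent, 0.894 in NAM31, 1.02 in NAM10, 1.53 in NAM06 and 1.63 in NAM11, and the lowest of the other elite libraries was NAM09 at 1.39 FPKM. NAM06 and NAM11 thus lay within the range of the others for NARK. CLV1A stood at 0.451 FPKM in Parent, 0.478 in NAM31, 0.522 in NAM11, 0.616 in NAM06 and 0.643 in NAM10, and the lowest of the other elite libraries was NAM13 at 0.935 FPKM. Low CLV1A was not confined to the 5, since the LG library NAM29 had 0.443 FPKM, below NAM31 of the same class, and the PI library NAM48 had 0.536. The part of the composition of the 5 libraries in their NARK and CLV1A levels was not tested.

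By class, NARK was highest in LG lines with 2.53 ± 0.750 FPKM (SD, n = 15), followed by PI lines with 2.39 ± 0.663 (n = 8), elite lines with 2.17 ± 0.750 (n = 18) and milestone cultivars. In LG lines it ran from 0.894 FPKM in NAM31 through a median of 2.80 to 3.40 FPKM in NAM32. In elite lines the range was from 0.438 FPKM in Parent through 2.37 to 3.19 FPKM in NAM15. The PI lines spanned 1.57 FPKM in NAM48 to 3.36 FPKM in NAM41 with a median of 2.396. The soyNAM classes overlapped over most of their ranges. Every PI line, 14 of 15 LG lines and 16 of 18 elite lines lay above the milestone median.

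Among neighbours in that order of NARK levels, the step from milestone cultivars to elite lines passed the test, with a log2 difference of 0.43 (SE 0.0854) and a limma adjusted p of 6.57e-06, where 68.7% of all genes were called. The steps within soyNAM did not pass. Between LG and elite lines the NARK difference was 0.16, with a 95% interval of -0.06 to 0.38 and a limma adjusted p of 0.744, where 0.0266% of genes were called. It was 0.07 without the 5 libraries. Between PI and elite lines it was 0.12 (-0.15 to 0.39, limma adjusted p = 0.689, 3.45% of genes called), and -0.04 without the 5 libraries. Between PI and LG lines it was -0.04 (-0.32 to 0.23, limma adjusted p = 0.997), and -0.11 without the 5 libraries. In that last comparison limma called 0 genes, with 1650 at an unadjusted p under 0.05, and a rank-sum test likewise called 0.

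CLV1A levels lay close together across the soyNAM classes, at 1.16 ± 0.403 FPKM in elite lines (SD, n = 18), 1.12 ± 0.317 in LG lines (n = 15) and 1.09 ± 0.418 in PI lines (n = 8). The elite range was 0.451 to 1.79 FPKM with a median of 1.27, the LG range 0.443 to 1.53 with a median of 1.22, and the PI range 0.536 to 1.70 with a median of 0.948. The PI median was therefore near the milestone median, while both other classes had higher ones. Elite lines exceeded milestone cultivars by a log2 difference of 0.15 (SE 0.0632, limma adjusted p = 0.0296), and by 0.28 without the 5 libraries and 0.37 after quantile normalization, where the call held. That call did not hold with a pseudocount of 0.1 or 0.01 FPKM (limma adjusted p = 0.0502 and 0.056) and depended on single libraries: without NAM02, NAM03, NAM04, NAM08, NAM15 or NAM17 in turn, the log2 difference fell to between 0.13 and 0.14 and no longer passed. It stood at 0.14 without NAM04 (limma adjusted p = 0.0509) and at 0.13 without NAM03 (limma adjusted p = 0.0712). No contrast within soyNAM passed for CLV1A. The 95% intervals were -0.18 to 0.15 for LG against elite, -0.24 to 0.15 for PI against elite and -0.23 to 0.18 for PI against LG, with limma adjusted p of 0.978, 0.859 and 0.997. The CLV1A differences were -0.02, -0.04 and -0.03, and -0.11, -0.17 and -0.06 without the 5 libraries, where none passed.

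The ratio of the copies within a library does not depend on how that library was scaled, and it compares the change of one copy directly with that of the other. NARK exceeded CLV1A in 40 of 41 soyNAM libraries and in 50 of 61 milestone libraries. It reached at least 2 times CLV1A in 21 soyNAM and 7 milestone libraries. In milestone cultivars the ratio of NARK to CLV1A ran from 0.686 in library 60 through a median of 1.43 to 3.38 in library 53. In soyNAM parents it ran from 0.971 in Parent through a median of 2.04 to 3.26 in NAM29. The ranges overlapped, yet 40 of 41 soyNAM libraries lay above the milestone median. NARK made up 67.2% ± 4.93 of the summed FPKM of the pair in soyNAM parents (SD, n = 41) and 58.1% ± 7.50 in milestone cultivars (n = 61).

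On the log2 scale the ratio averaged 1.04 ± 0.3203 in soyNAM parents (SD, n = 41) and 0.484 ± 0.454 in milestone cultivars (n = 61). The difference of 0.56 (SE 0.0767) corresponds to a 1.47-fold higher ratio and had a permutation p of 2e-05, the smallest that the 100000 two-sided resamples can give (1e-04 after Benjamini-Hochberg adjustment over 5 contrasts). Thus the rise of NARK exceeded that of CLV1A between the collections. The difference in log2 ratio was 0.58 without the 5 libraries that stand apart (adjusted permutation p = 1e-04). Ratios of other gene pairs were not tested, so the result does not set this pair apart from others.

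**Figure D2:**
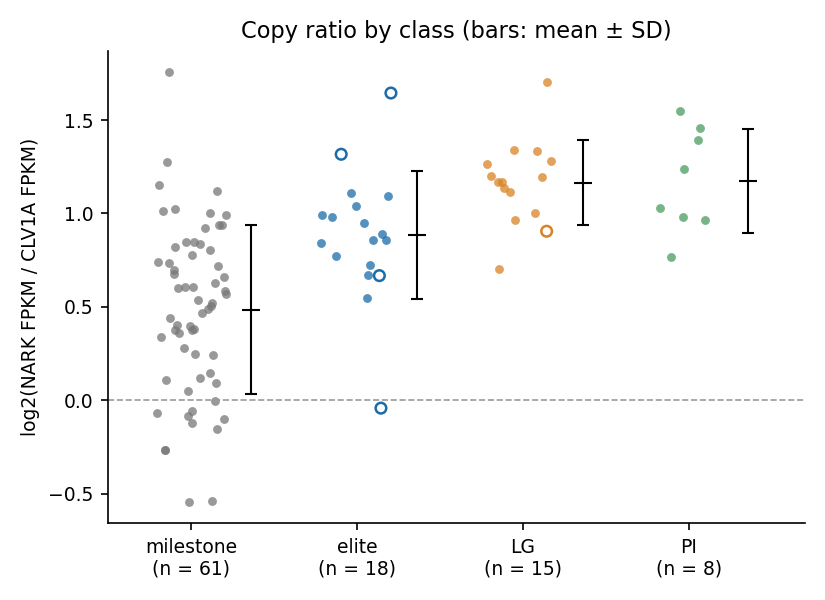
log2 ratio of NARK to CLV1A FPKM in each of 102 libraries by class, 1 point per library, with the mean and SD beside each class; the dashed line marks equal levels and open circles the 5 libraries that stand apart. The class means are 0.484 in milestone cultivars, 0.884 in elite, 1.17 in LG and 1.17 in PI lines.

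The copy ratio also differed between LG and elite lines, whose NARK and CLV1A levels did not pass the test across genes. The 2 tests are unlike, since the ratio had no pseudocount and was adjusted over 5 contrasts only, and the levels over all tested genes. The log2 ratio averaged 0.884 ± 0.345 in elite lines (SD, n = 18), 1.17 ± 0.229 in LG lines (n = 15) and 1.17 ± 0.278 in PI lines (n = 8). At least 2 times as much NARK as CLV1A was found in 5 of 18 elite, 11 of 15 LG and 5 of 8 PI libraries. Elite lines were above milestone cultivars by 0.40 (SE 0.0999, adjusted permutation p = 0.002). LG lines were above elite lines by 0.28 (SE 0.1004, adjusted permutation p = 0.0126), and this passed with each of the 33 libraries left out in turn.

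PI lines exceeded elite lines by a similar 0.29 in log2 ratio (SE 0.128) that did not pass, with an adjusted exact permutation p of 0.0525. It passed without the 5 libraries, at 0.29 and an adjusted exact permutation p of 0.0092. It also passed, at 0.30 to 0.35, when any 1 of NAM06, NAM11, NAM15, NAM23, NAM40, NAM41 or NAM50 was left out, and did not pass for the 19 other libraries left out singly. PI and LG lines differed in log2 ratio by 0.01 (SE 0.115, adjusted exact permutation p = 0.947), with a 95% interval of -0.22 to 0.23 taken from the SE.

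The elite lines held the most scattered copy ratios in soyNAM, and this rested on the libraries that stand apart. NAM11 and NAM06 had log2 ratios of 1.64 and 1.32, above all other elite libraries, and Parent had -0.04, below all others. NAM10 at 0.667 lay within the range of the rest. The SD of the log2 ratio in elite lines was 0.345 with all 18 libraries and 0.164 with the 14 others. The elite mean of 0.881 in those 14 was close to the 0.884 of all 18.

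The 4 highest ratios were found where CLV1A was low. Library 53 combined 1.42 FPKM of NARK with 0.420 of CLV1A, NAM29 1.45 with 0.443, NAM11 1.63 with 0.522, and NAM48 1.57 with 0.536. These were the 4 libraries with a log2 ratio above 1.5, and each had NARK below 1.7 FPKM. The next highest, NAM54 at 1.46, combined 2.69 FPKM of NARK with 0.981 of CLV1A, and NAM33 at 1.34 combined 2.85 with 1.13, so high ratios were also found with high NARK. At the other end CLV1A was at least as high as NARK in 11 milestone libraries and in Parent. Library 60 had 0.473 FPKM of NARK and 0.689 of CLV1A, and library 52 had 0.624 and 0.905.

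Spread was compared as the mean absolute deviation from the group median. For NARK it was 0.274 in soyNAM parents and 0.232 in milestone cultivars on the log2(FPKM + 1) scale (adjusted permutation p = 0.339), and for CLV1A 0.206 and 0.163 (adjusted permutation p = 0.215). For the log2 ratio it was smaller in soyNAM parents, at 0.238 against 0.358, with an adjusted permutation p of 0.0544. Without the 5 libraries it was 0.203 against 0.358 (adjusted permutation p = 0.00426), and with each soyNAM class centred on its own median 0.204 against 0.358 (adjusted permutation p = 0.00606). All 5 are soyNAM parents, among them Parent with the lowest soyNAM log2 ratio (-0.04), so leaving them out changes the soyNAM spread only. Milestone library 60 was kept, with the lowest log2 ratio of all (-0.54) and a summed FPKM of 529002. Centring by class also changes the soyNAM spread only, since the milestone cultivars were not split into classes. The difference in spread of the ratio therefore depended on which libraries were kept and on the centring. It also passed without Parent alone, at -0.14, without NAM09, NAM11, NAM29, NAM48 or NAM54, and without any of 21 milestone libraries, which made 27 of 102 libraries left out singly. In FPKM the coefficient of variation of NARK was 31.3% in soyNAM parents and 33.98% in milestone cultivars, against medians of 28.2% and 24.6% over all tested genes, and that of CLV1A was 32.5% and 28.4%.

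NARK and CLV1A moved together from accession to accession. Within the soyNAM parents Pearson's r of log2(FPKM + 1) was 0.864 and Spearman's rho 0.823 (n = 41), and within the milestone cultivars r was 0.599 and rho 0.612 (n = 61). Each had a permutation p of 2e-05, the smallest possible here, and 4e-05 after adjustment over 6 relations with both coefficients. Leaving out the 2 libraries farthest from the NARK median gave r = 0.842 without Parent and NAM31, and r = 0.568 without libraries 57 and 60. Whether the coefficients of the collections differ was not tested. Fragments that match both copies can be shared between them in quantification, and what such sharing adds to the correlation was not tested.

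**Figure D3:**
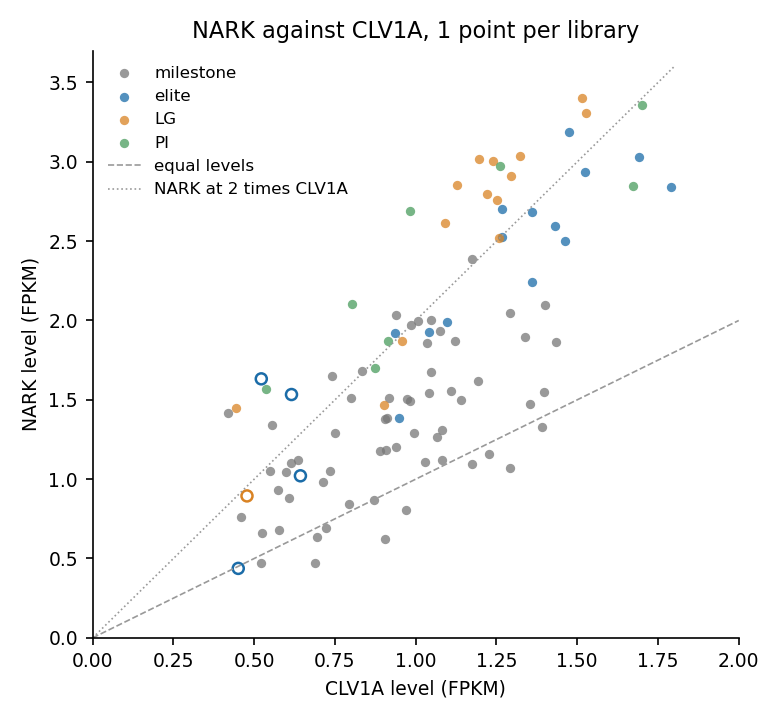
NARK FPKM (vertical) against CLV1A FPKM (horizontal) in each of 102 libraries, coloured by class, with open circles for the 5 libraries that stand apart; the dashed line marks equal levels and the dotted line NARK at 2 times CLV1A. Of the 41 soyNAM libraries 40 lie above the dashed line, and of the 61 milestone libraries 50.

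Both copies also rose with summed FPKM in soyNAM parents. For NARK r was 0.762 and rho 0.534 (n = 41, adjusted permutation p = 4e-05 and 6.3e-04), and for CLV1A r was 0.768 and rho 0.588 (adjusted permutation p = 4e-05 and 1.03e-04). Without Parent and NAM11, the libraries farthest out in summed FPKM, r was 0.680 and 0.709. In milestone cultivars r was 0.267 for NARK and 0.0940 for CLV1A, with rho 0.235 and 0.157 (n = 61, adjusted permutation p of 0.0506, 0.470, 0.0804 and 0.247). These relations were examined after the values had been seen. After median-of-ratios scaling, r between NARK and CLV1A stayed at 0.864 in soyNAM parents and was 0.601 in milestone cultivars. The factors of that scaling were all near 1, from 0.973 in NAM15 to 1.07 in library 47, so it could hardly change r. What the relation with summed FPKM adds to the correlation of the copies was not tested.

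With each class centred on its mean, CLV1A had the highest correlation with NARK of all 30100 other tested genes (r = 0.75 over 102 libraries), and NARK the highest with CLV1A. The median over all genes was -0.01 for NARK and -0.00 for CLV1A. After quantile normalization or without the 5 libraries CLV1A had rank 3 for NARK, at r = 0.71 and 0.69, while NARK kept rank 1 for CLV1A. Next for NARK came Glyma.20G020900 and Glyma.12G239100, both with r = 0.73. Glyma.20G020900 averaged 4.81 FPKM in the soyNAM collection and 1.93 among milestone cultivars. Next for CLV1A came Glyma.19G219500 with r = 0.69, and Glyma.12G239100 with r = 0.68 had rank 5. These correlations are descriptive, since all genes share the same libraries and their composition, and the table does not say what these genes encode.

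Most other genes of the nodulation pathway were listed at low values in these leaves. The list held 13 genes by their published IDs, of which 1 passed the filter on low values and 7 never reached 1 FPKM. Among the genes of the root peptides, RIC1, made in response to rhizobia, and NIC1, made in response to nitrate, were listed at 0 in all 102 libraries, and RIC2 was above 0 in NAM29 alone, at 0.0369 FPKM. Whether a listed 0 marks a silent gene cannot be told from these values and was not tested. A second Rubisco small subunit gene (Glyma.19G046800) was also listed at 0 in 60 of 102 libraries, and stood at 1 FPKM or more in 42. These peptides are the known ligands of the NARK pathway. NIN1a, NIN1b, NIN2a and NIN2b, transcription factors that start nodule formation, had medians of 0 to 0.00958 FPKM, and the receptor kinases SymRKa and SymRKb of the shared symbiosis pathway medians of 0.0336 and 0.0338 FPKM. NIN1a and SymRKa reached 1 FPKM in 1 library each and NIN2b in 2.

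Receptors for the rhizobial Nod factor differed more. NFR5a was above 0 in NAM39 alone, whereas the gene listed as NFR5b (Glyma.01G179400) had a median of 16.4 FPKM, from 0.285 FPKM in Parent to 28.7 FPKM in NAM08. That this ID is the Nod factor receptor rests on a published assignment that the table does not carry, and its level was unlike those of the other receptors listed, so its identity is uncertain. Its means of 18.4 ± 6.80 FPKM in the parents (SD, n = 41) and 16.04 ± 4.12 in milestone cultivars (n = 61) gave a log2 difference of 0.06 that did not pass (limma adjusted p = 0.657). It passed without the 5 libraries, at 0.30 (limma adjusted p = 1.79e-04), and in the rank-sum test (adjusted p = 0.0182). NFR1b averaged 0.749 ± 0.656 FPKM in the soyNAM collection against 0.187 ± 0.263 among milestone cultivars, with 12 of 41 and 2 of 61 libraries at 1 FPKM or more. With no filter on low values, NFR1b was the 1 gene called higher of the 11 on the list above 0 in any library, and 0 were called lower, against 55.4% of all genes called in that fit, and the median log2 difference of the 11 was 0.00. NFR1a had a median of 0.0370 FPKM and reached 1 FPKM in 6 libraries.

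None of the 7 tested genes beside NARK was called higher in soyNAM parents. Beside CLV1A it was 3 of 8, near the share of all tested genes, and whether the 2 places differ was not tested. Of the 5 gene IDs on each side of NARK 7 could be tested, with 0 higher in the soyNAM collection, 3 lower and 4 not called, with log2 differences from -2.51 to 0.14. Around CLV1A 8 could be tested, with 3 higher, 3 lower and 2 not called, from -1.50 to 0.44. The share called near NARK, 3 of 7, and near CLV1A, 6 of 8, stand against the 74.8% of all genes, of which 37% were higher and 37.8% lower. The medians were -0.05 and -0.01, against -0.00 over all genes.

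**Figure D4:**
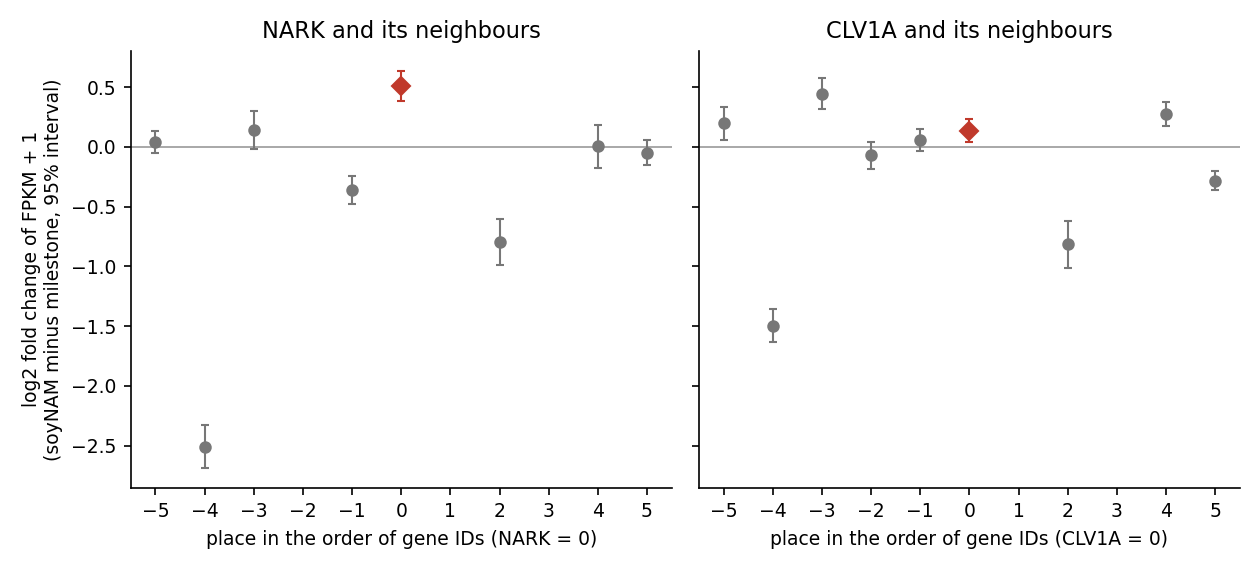
log2 difference of FPKM + 1 between soyNAM parents and milestone cultivars for NARK (left) and CLV1A (right), as red diamonds at place 0, and for those of the 5 gene IDs on each side that passed the filter, with 95% intervals, in the order of the IDs. NARK stands at 0.51 above all 7 of its neighbours shown, and the genes at places -4 and 2 are lower in both panels.

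The strongest falls stood at the same place from each copy. The gene 4 IDs before NARK, Glyma.12G039600, averaged 0.139 ± 0.155 FPKM in the soyNAM collection against 5.88 ± 2.396 among milestone cultivars, and no soyNAM library reached the lowest milestone level. The gene 4 IDs before CLV1A, Glyma.11G113700, averaged 0.127 ± 0.0759 and 2.30 ± 0.914 FPKM, again without overlap, though narrowly (0.410 FPKM at most in soyNAM, 0.432 at least in milestone). How many of all tested genes separate the collections without overlap was not counted, so this does not set these neighbours apart. Their log2 differences were -2.51 and -1.50, with limma adjusted p of 2.87e-47 and 9.91e-39. The genes 2 IDs after each copy, Glyma.12G040200 and Glyma.11G114300, had log2 differences of -0.80 and -0.81. The 5 libraries that stand apart went the other way for both, with means of 26.2 and 25.8 FPKM against milestone means of 15.8 and 15.3. Of the neighbours called higher, all beside CLV1A, the largest difference was 0.44 in Glyma.11G113800, at 26.2 ± 6.40 against 18.5 ± 2.85 FPKM. What these neighbours encode is not given in the table.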

How the data were processed

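Leaf RNA of 102 accessions was measured, 1 library each. The submitters' processing notes name Cufflinks 2.2.1, STAR 2.4.1c and Trimmomatic 0.32, with no order or settings. The authors deposited FPKM per gene. The build beyond the ID suffix, the filters and the use of strand are not given in the sources used here, and near-identical copies such as NARK and CLV1A can share fragments. Of the columns, 0 were left unused, and 0 pairs of libraries were identical. Columns were assigned to classes by family number: elite lines are 2 to 23 with Parent, LG lines run from 24 up to 39, and PI lines from 40 up to 64.

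Values were analysed as log2(FPKM + 1) where the mean of a gene reached 1 FPKM, with limma 3.58.1 (mean trend, 2-sided, Benjamini-Hochberg, threshold 0.05) in R 4.3.3. The collections were compared as 2 groups, the other contrasts in a model of 4 classes. With 1 library per accession, p-values were computed against the spread between libraries. Differences between accessions, plants and library preparations cannot be told apart in that spread. Ratios (no pseudocount), spreads and correlations were tested by permutation with 100000 resamples, or exactly where a group was under 10, in scipy 1.17.1; their 95% intervals are the difference and its SE on a normal scale. Functions were tested on simulated data. Symbols of NARK and CLV1A are those of RefSeq, and 0 gene IDs matched that table, so locus names rest on published IDs. The CLAVATA list that needed gene descriptions was not made. Named were both copies, the nodulation list, tissue markers, 5 IDs on each side, and the 5 genes most alike, of which at most 2 without a name are printed. Members, lists and the 5 libraries set apart were chosen with earlier results of these data known. Alternatives were other pseudocounts (0.1 and 0.01 FPKM), filters, scalings, fits, tests and libraries left out.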

Additional observations from a re-analysis of the deposited data

How the results depend on the processing

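NARK and CLV1A kept their direction and their calls between soyNAM parents and milestone cultivars under every alternative that gave a value, at 0.51 to 0.81 and 0.14 to 0.34 on the log2 scale. A filter at a mean of 5 FPKM gave none, since both genes lie below it. CLV1A in elite against milestone lost its call with pseudocounts of 0.1 and 0.01 FPKM (0.26 and 0.28, limma adjusted p = 0.0502 and 0.056). NARK in PI against elite turned to -0.0399 without the 5 libraries that stand apart. The log2 ratio in PI against elite passed with a pseudocount of 1 FPKM (0.16), without the 5 libraries (0.29) and for medians (0.26), and that in PI against LG turned to -0.0178, -0.0119 and -0.0358. Without the 5 libraries, all of them soyNAM parents, the difference in spread turned to -0.0339 for NARK and -0.0029 for CLV1A. For the log2 ratio it passed at -0.15, as it did with the soyNAM classes centred (-0.15), which also changes the soyNAM spread only. The cause of these changes was not tested.

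With single libraries left out (soyNAM libraries and library 60 for the fits across genes), values ran from 0.50 to 0.54 for NARK and 0.12 to 0.15 for CLV1A between the collections, 0.40 to 0.49 and 0.13 to 0.18 in elite against milestone, 0.23 to 0.33 for the log2 ratio in LG against elite, 0.23 to 0.35 in PI against elite and -0.14 to -0.10 for the spread of the ratio. These omissions were chosen after seeing the data.

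Over all genes, 22508 calls between the collections became 12573 and 20679 in elite against milestone 11596 with the filter at 5 FPKM. LG against elite gave 8 calls, and 4, 5, 14, 4, 3, 109, 0 and 1 with pseudocounts of 0.1 and 0.01, no filter, median-of-ratios, quantile, without the 5 libraries, only those classes and rank-sum. PI against elite gave 1037, and 3515 without the 5 libraries, 290 with only those classes and 671 by rank-sum. PI against LG gave 0, and 20, 20, 5, 4, 4 and 39 with both pseudocounts, no filter, the 5 FPKM filter, quantile and without the 5 libraries. Of the 5 genes most like CLV1A, 2 stayed among the 5 after quantile normalization and 2 without the 5 libraries, and 4 each for NARK. No paired analysis was possible because each library came from a different accession. Levels near 1 FPKM with unknown depth limit the precision of both copies.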
